A study of Homo sapiens with 3 samples.

Results

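The 10 genes described here are the BMP ligands BMP4, BMP5 and BMP7, the secreted BMP antagonist GREM1, the inhibitory SMADs SMAD6 and SMAD7, and the ID genes ID1, ID2, ID3 and ID4. They were taken by gene symbol from the 33538 genes in the files, and all 10 were found. The set was chosen so that sources of ligand could be read beside ID gene levels in the same cells. Transcripts were counted in single cells of human blood vessel organoids, which are cultures grown from stem cells that form endothelial tubes wrapped by mural cells. All 3 libraries came from the H1 embryonic stem cell line carrying a PiggyBac cassette that expresses NEUROD1, a transcription factor that drives neuronal differentiation, joined to GFP through a P2A peptide and switched on by doxycycline. The libraries differed in doxycycline at 1 µg/ml, given for 0 days (no induction), 15 days or 45 days, and all were harvested at day 45. BDNF and NT-3, which are neurotrophins, were present from day 15 in all 3 libraries, the uninduced one included. Each library pooled 5 to 6 organoids of 1 stem cell line, and which 15 days of the culture were induced is not stated. With 1 library per group no difference between groups has a replicate check, so no test was made, and every 95% interval given here covers counting error only.

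BMPs are secreted factors of the TGF-β superfamily. They bind paired type I and type II serine/threonine kinase receptors, which phosphorylate SMAD1, SMAD5 and SMAD9, and these enter the nucleus with SMAD4. ID1 to ID4 encode helix-loop-helix proteins without a DNA-binding region that hold E proteins away from DNA, and ID1, ID2 and ID3 are widely used readouts of BMP signalling. SMAD6 and SMAD7 are feedback inhibitors, SMAD6 chiefly of BMP signalling and SMAD7 of both the BMP and TGF-β branches, while gremlin-1, the product of GREM1, binds BMP2, BMP4 and BMP7 outside the cell. In vessels, BMP9 and BMP10 act on endothelium through ALK1 and endoglin, whereas BMP4 is used in culture to direct stem cells to mesoderm.

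The ID genes and the inhibitory SMADs are where promoter sequence bears on this pathway, since SMADs bind short elements there. Of the 10 genes, 9 had at least 1 RefSeq promoter in GRCh38.p14, giving 14 windows of 250 bases before a transcription start. Windows were searched on both strands for GTCTAGAC, the palindromic SMAD-binding element, for GGCGCC, a GC-rich element bound by BMP-responsive SMADs, and for the general promoter elements TATAAA and CCAAT. No match overlapped a match of another motif. GTCTAGAC was in 64 of 35116 windows in the genome (0.182%), and among the 10 genes in SMAD6, 12 bases before the start. GGCGCC was in 5752 windows (16.4%), and here in 1 window of BMP4 (232 bases before the start) and 1 of GREM1 (83 and 52 bases before). TATAAA was in 3763 windows (10.7%), CCAAT in 11240 (32.0%). ID1, ID4, BMP5 and SMAD7 had TATAAA, and ID1, ID2, ID4 and GREM1 had CCAAT. A match is a description of these letters and not a bound site. The ID1 window is chr20:31605039-31605288, the ID4 window chr6:19837120-19837369 and the SMAD6 window chr15:66701986-66702235, all on the plus strand. ID4 is shown for its levels in neuron-like cells, ID1 as the ID gene most used as a readout of the pathway, and SMAD6 because it held GTCTAGAC. Capitals mark TATAAA on either strand in ID1 (33 and 31 bases before the start, overlapping) and in ID4 (29 bases before), and GTCTAGAC in SMAD6.
ID1: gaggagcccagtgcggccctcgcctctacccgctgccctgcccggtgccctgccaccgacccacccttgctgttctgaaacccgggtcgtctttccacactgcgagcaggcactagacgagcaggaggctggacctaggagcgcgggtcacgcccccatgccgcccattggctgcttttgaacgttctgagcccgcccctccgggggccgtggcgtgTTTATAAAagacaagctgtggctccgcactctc
ID4: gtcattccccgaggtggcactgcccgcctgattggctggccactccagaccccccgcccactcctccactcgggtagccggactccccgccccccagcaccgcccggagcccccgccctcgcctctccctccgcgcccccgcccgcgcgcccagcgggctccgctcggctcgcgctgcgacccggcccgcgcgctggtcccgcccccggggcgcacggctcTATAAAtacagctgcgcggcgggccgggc
SMAD6: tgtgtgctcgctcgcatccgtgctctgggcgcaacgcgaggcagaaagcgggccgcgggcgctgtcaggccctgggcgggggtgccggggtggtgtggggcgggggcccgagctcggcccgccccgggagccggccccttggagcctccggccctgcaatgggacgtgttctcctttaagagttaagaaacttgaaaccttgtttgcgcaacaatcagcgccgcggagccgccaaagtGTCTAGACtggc

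In GENCODE 29 (GRCh38), the 4 ID genes are short and lie apart, ID1 at chr20:31605283-31606515, ID2 at chr2:8678845-8684453, ID3 at chr1:23557918-23559794 on the minus strand and ID4 at chr6:19837386-19840684. BMP4 is at chr14:53949736-53958761, BMP5 at chr6:55753645-55875564 and BMP7 at chr20:57168748-57266629, all on the minus strand. SMAD6 and GREM1 lie on the plus strand of chromosome 15, at 66702228-66782848 and 32717974-32745107, and SMAD7 on the minus strand at chr18:48919853-48952052. Antisense or opposite-strand genes overlap ID2, ID4, BMP7 and GREM1, and their own UMIs came to at most 1.05% of the member's (108 UMIs for AL022068.1 against 10289 for ID4).

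After filtering, 8133 cells of the uninduced library, 5050 of the 15-day library and 8813 of the 45-day library were kept, with medians of 5141, 7271.5 and 5546 UMIs per cell and 50267481, 44818790 and 54438494 UMIs in all. The uninduced and 45-day libraries shared 33 deposited barcodes, the uninduced and 15-day libraries 13, and the 15-day and 45-day libraries 15. NEUROD1 itself was at 1.53 CPM (counts scaled by the total UMIs of the cells summed) in the uninduced library, 1.45 CPM in the library labelled 15 days and 44.8 CPM in the 45-day library, so its count does not set the library labelled 15 days apart from the uninduced one. GFP follows NEUROD1 in the cassette, so 3′ tags at NEUROD1 need not report cassette transcripts. In the uninduced library 74 of the 77 NEUROD1 UMIs came from liver secretory-like cells. Cells with neuronal markers numbered 1, 291 and 301 in the uninduced, 15-day and 45-day libraries, and NEUROD1 in them was at 11.6 CPM at 15 days and 733 CPM at 45 days.

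Clustering, with the 10 genes and 75 other BMP pathway genes left out of the variable genes, gave 21 clusters, which were named where they carried marker genes of a cell type. Endothelial-like cells (1 cluster, led by PECAM1, KDR and CD93; 12 of 13 markers met) made up 4.96% of the uninduced cells, 5.94% after 15 days and 2.22% after 45 days. Mesenchymal-like cells (5 clusters) made up 46.3%, 33.7% and 27.8%. Mural-like cells (2 clusters) numbered 561, 480 and 788. Of 15 mural markers, cluster 9 (KCNJ8 and ABCC9 among its leading genes) met 11. Cluster 14 (RGS5 and HES5, the latter from the neural progenitor list) met 6. Neuron-like, haematopoietic-like, epithelial-like, liver secretory-like and cycling-like cells were also named, the neuron-like cells with 15 of 15 markers met. Further clusters, most with mesenchymal markers, were led by genes of other lists and were left unnamed, and they are called by number: cluster 17 (LHX9, LHX2, HOXD13), cluster 7 (ITM2A, DKK1, LHX2), cluster 2 (ALX1, FABP7), cluster 5 (MYH6, ACTC1, TCF21), cluster 6 (ANKRD37, STC2, VEGFA) and cluster 19 (POU5F1, UTF1). Values for whole libraries therefore mix levels within cells with the share of each cell type. The mesenchymal-like cells of the 3 libraries were not the same mixture: 2104 of 3763 uninduced cells lay in cluster 3, while 738 of 1703 cells at 15 days lay in cluster 8 and 1299 of 2447 at 45 days in cluster 4. Cluster 1 was almost all of 1 library (557 of 613 cells uninduced), and the summed mesenchymal markers of mesenchymal-like cells were at 16626 CPM in uninduced cells, 4539 CPM after 15 days and 5577 CPM after 45 days. The part of these differences in the results below was not tested, beyond the values given without cluster 1 and within single clusters.

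Across whole libraries, BMP7 was higher at 45 days than without induction and GREM1 was lower at 15 days than without induction, and no other member was called. ID1, ID3 and ID4 had larger values in both induced libraries than in the uninduced one, short of 2-fold. A gene was called where its CPM, with 5 CPM added to each side, was at least 2-fold apart and it reached 20 CPM in 1 of the libraries compared. Between 45 days and no induction 1 of the 8 members at that level was called, BMP7, against 3.31% of 6441 genes. Between 15 days and no induction 1 of 10 was called, GREM1, against 5.6% of 6786 genes. Between 45 and 15 days 0 of 9 were called, against 2.05% of 6792 genes. The median log2 ratio of the members was 0.49, 0.58 and −0.18 in these comparisons, beside 0.13, 0.19 and −0.06 for all genes at that level. The comparisons with no induction share the uninduced library. Scaling by the median ratio over genes in place of the total shifted log2 ratios downward by 0.12 at 45 days and 0.175 at 15 days against no induction.

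**Figure D1:**
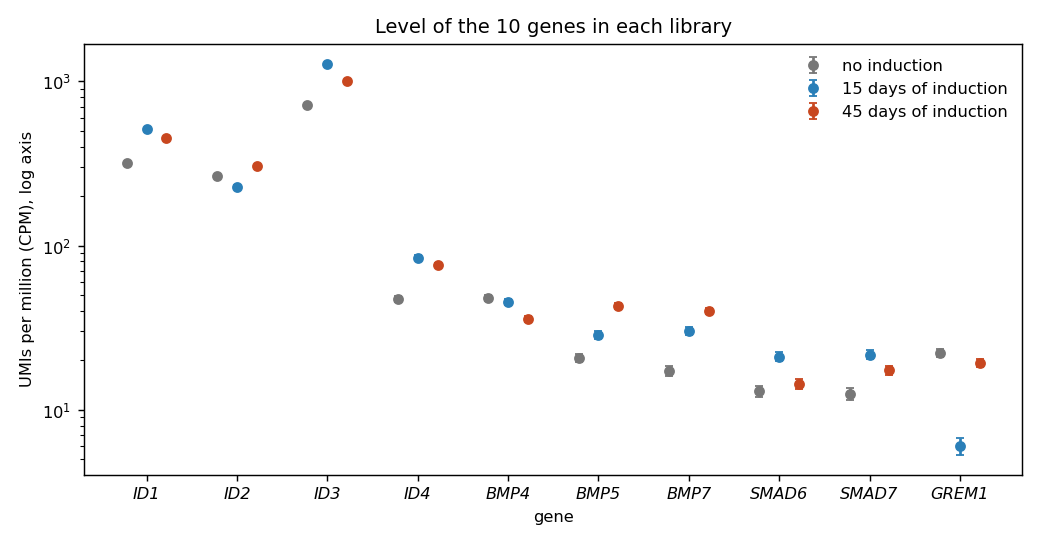
Level of each of the 10 genes in CPM on a log axis, for no induction, 15 days and 45 days of induction from left to right; points are 1 library each and bars are exact Poisson 95% intervals on the summed UMIs. GREM1 is at 5.98 CPM in the 15-day library, its lowest point, while BMP5 and BMP7 have their highest points, 42.8 and 39.9 CPM, at 45 days.

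Among the ligands, BMP7, which acts in kidney, eye and limb development, was at 17.2 CPM in uninduced cells (866 UMIs), 30.0 CPM after 15 days (1346 UMIs) and 39.9 CPM after 45 days (2172 UMIs). At 45 days it was 2.32-fold higher than without induction (interval 2.14 to 2.51; log2 ratio 1.01). That call is close to the threshold: the log2 ratio was 0.56 when every cell class had equal weight, 0.91 after scaling by the median gene and 0.89 without cluster 1. BMP5, a ligand of the same subgroup as BMP7, was at 20.6 CPM in uninduced cells (1038 UMIs), 28.5 CPM after 15 days (1277 UMIs) and 42.8 CPM after 45 days (2329 UMIs). Its 45-day level was 2.07 times the uninduced one (1.93 to 2.23), which with 5 CPM added is a log2 ratio of 0.90 and short of the call. BMP4, the ligand most used to induce mesoderm, had 47.8 CPM in uninduced cells (2403 UMIs), 45.1 CPM after 15 days (2021 UMIs) and 35.6 CPM after 45 days (1941 UMIs), and was called in no whole-library comparison. The 3 ligands thus ordered the libraries differently, BMP4 with its lowest value where BMP5 and BMP7 had their highest.

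The ligands came from different cells. BMP7 was highest in the clusters led by LHX2: 138 CPM in cluster 7 (126 to 151) and 109 CPM in cluster 17 (102 to 115), then 43.6 CPM in cycling-like cells, 26.4 CPM in epithelial-like cells, 24.9 CPM in cluster 2 and 24.0 CPM in mesenchymal-like cells. Mural-like cells had 4.92 CPM and endothelial-like cells 0.813 CPM (0.298 to 1.77). The epithelial-like cells, cluster 2, mesenchymal-like and liver secretory-like cells could not be ordered, since their intervals overlap. Cluster 17, with 1639 of 21996 cells, gave 26.0% of all BMP7 UMIs. This cluster held 210 uninduced cells, 176 after 15 days and 1253 after 45 days, so its share of cells moved with the whole-library BMP7 level, a part not tested beyond the equal-weight value above. Within cluster 17, BMP7 was at 77.2 CPM in uninduced cells, 162 CPM after 15 days and 103.5 CPM after 45 days. Within mesenchymal-like cluster 3 BMP7 was at 60.9 CPM at 45 days against 22.5 CPM without induction (2.71-fold, 2.22 to 3.30). That was a call, where 1.89% of genes were called. The other mesenchymal-like clusters compared, clusters 4, 8 and 10, had no BMP7 call at 45 days against no induction. In the mesenchymal-like class the log2 ratio was 0.88, short of a call. Nor was BMP7 called in clusters 2, 5, 6, 7 or 17, while it was called in cycling-like cells.

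BMP4 had the same leading clusters, with 133 CPM in cluster 7 (122 to 146) and 88.3 CPM in cluster 17 (82.7 to 94.2). Cycling-like cells followed at 58.2 CPM, with clusters 5 and 2 and the mesenchymal-like cells between 52.2 and 54.1 CPM and overlapping one another. Mural-like cells were at 18.0 CPM, and endothelial-like, neuron-like and haematopoietic-like cells at 2.85, 1.81 and 1.33 CPM, intervals that overlap. BMP4 UMIs in the endothelial-like cells numbered too few to set apart from free RNA: after thinning every cell to 2000 UMIs, 0.481% of them had a BMP4 UMI, against 0% of the haematopoietic-like cells (0 of 205 cells, which allows up to 1.46%), at median depths of 7403 and 5664 UMIs. Mesenchymal-like cells gave 39.6% of all BMP4 UMIs.

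BMP5 had another pattern, led by the mesenchymal-like and mural-like cells. Mesenchymal-like cells were at 48.0 CPM (46.05 to 49.98) and mural-like cells at 45.6 CPM (42.0 to 49.4), levels whose intervals overlap, followed by cluster 6 at 36.6 CPM and cycling-like cells at 31.0 CPM. Single clusters reached 94.0 CPM in mesenchymal-like cluster 4 (led by CLDN11, MEOX2 and ASPN) and 52.9 CPM in mural-like cluster 9. Clusters 7 and 17, first for BMP4 and BMP7, had 17.3 and 29.5 CPM of BMP5. Liver secretory-like, endothelial-like, neuron-like and haematopoietic-like cells were all under 3 CPM.

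**Figure D2:**
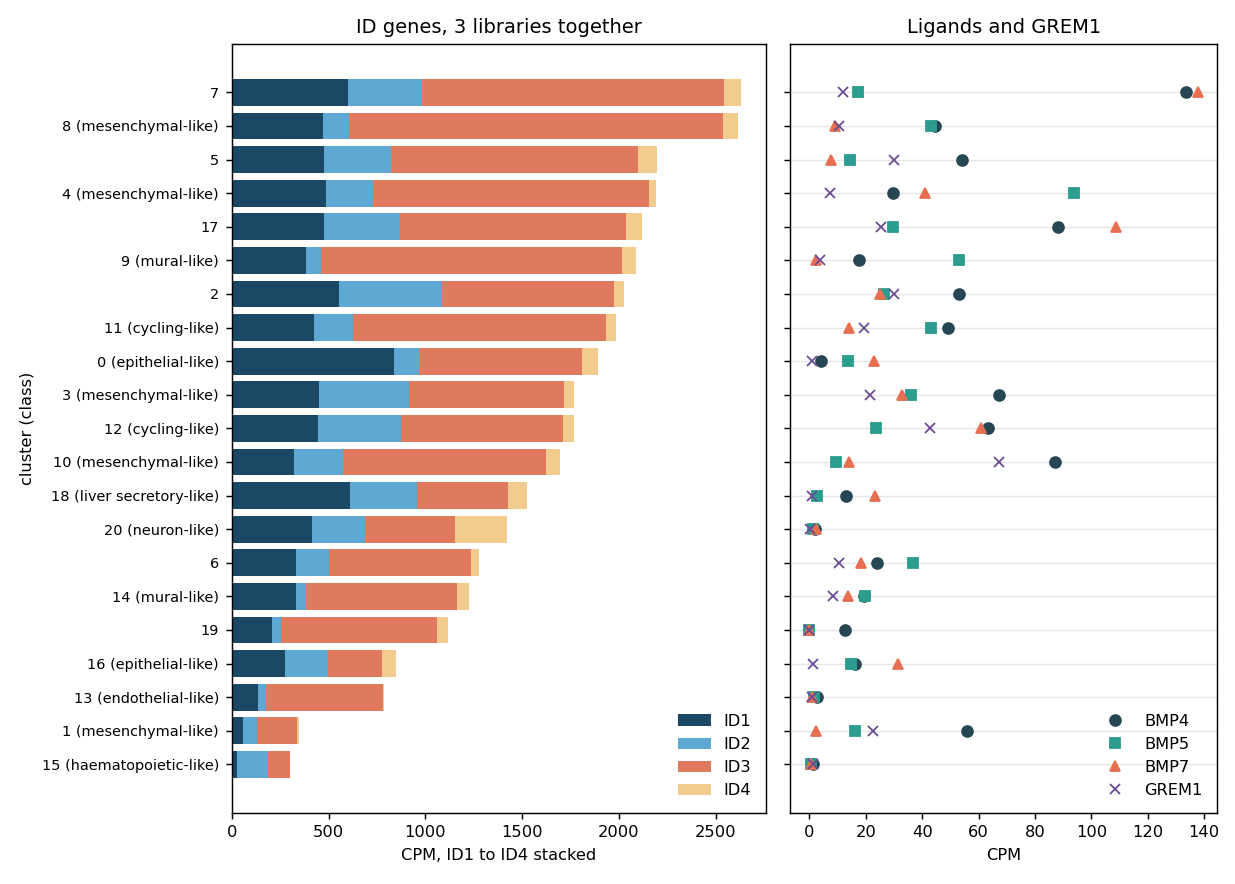
Left, CPM of ID1, ID2, ID3 and ID4 stacked for each of the 21 clusters with the 3 libraries together; right, CPM of BMP4, BMP5, BMP7 and GREM1 in the same clusters, each point 1 gene. BMP4 and BMP7 peak in cluster 7 (133 and 138 CPM), BMP5 in cluster 4 (94.0 CPM) and GREM1 in cluster 10 (67.3 CPM), while ID gene sums are lowest in cluster 15, the haematopoietic-like cells, and in cluster 1.

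BMP5 was called higher at 45 days than without induction in both mural-like and mesenchymal-like cells. In mural-like cells it was at 22.3 CPM in uninduced cells, 55.6 CPM after 15 days and 53.8 CPM after 45 days. It was the 1 member called of the 5 at 20 CPM in this class at 45 days against no induction (log2 ratio 1.11; background 1.38% of genes) and at 15 days against no induction (1.15; background 1.4%). Both mural-like clusters went the same way: in cluster 14 BMP5 was at 24.5 CPM at 45 days against 7.92 CPM without induction (3.10-fold, 1.46 to 6.91; 3.16% of genes called) and at 47.1 CPM at 15 days (5.55% of genes called), and in cluster 9 at 59.7 CPM at 45 days against 32.6 CPM (1.83-fold, 1.40 to 2.42; not called). With doublets kept, with cells thinned, or with the members kept in the clustering, the mural-like call was lost at both times, the lowest log2 ratios being 0.71 at 45 days and 0.67 at 15 days. Between 45 and 15 days 0 of 5 members were called in mural-like cells, against 0.225% of genes.

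In mesenchymal-like cells BMP5 was at 26.5 CPM in uninduced cells, 55.5 CPM after 15 days and 76.7 CPM after 45 days. At 45 days against no induction it was the 1 of 8 members called (log2 ratio 1.38; background 4.59%). The called member depended on how the class was drawn: with classes taken from single cells BMP5 was at 0.92 and BMP7 at 1.24, and with unnamed clusters put back BMP5 was at 0.93 and BMP7 at 1.27, so that BMP7 was called in place of BMP5. No mesenchymal-like cluster repeated that call on its own: at 45 days against no induction cluster 3 had 56.6 against 28.6 CPM (log2 ratio 0.87), cluster 4 had 106 against 109 CPM (−0.04) and cluster 8 had 44.3 against 28.7 CPM (0.55). Cluster 4, where BMP5 was highest, held 236 of the 3763 uninduced mesenchymal-like cells and 1299 of the 2447 at 45 days. Between 45 and 15 days 0 of 8 members were called, against 0.708% of genes.

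GREM1, the antagonist, was the member with the widest gap between libraries. It was at 22.2 CPM in uninduced cells (1116 UMIs), 5.98 CPM after 15 days (268 UMIs) and 19.2 CPM after 45 days (1047 UMIs). The 15-day library was 3.71-fold below the uninduced one (3.25 to 4.26; log2 ratio −1.31), and this held in direction under all 16 alternatives, between −1.73 and −0.92, the weakest with equal class weights. The 45-day library was 3.22-fold above the 15-day one (2.81 to 3.69) without reaching the 20 CPM needed for a call. With 1 library per group, induction and differences between cultures cannot be told apart here.

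By cell type, GREM1 was at 33.9 CPM in cycling-like cells (30.9 to 37.0), 30.0 CPM in cluster 2, 29.9 CPM in cluster 5 and 25.3 CPM in cluster 17, each overlapping its neighbour in that order. Mesenchymal-like cells were at 19.1 CPM, with cluster 10 (SIM2, APCDD1; 584 of its 703 cells uninduced) at 67.3 CPM. Mural-like cells were at 4.69 CPM, and endothelial-like and neuron-like cells at 0.813 and 0.241 CPM. In mesenchymal-like cells GREM1 was at 27.3 CPM in uninduced cells, 8.77 CPM after 15 days and 15.0 CPM after 45 days. At 15 days against no induction GREM1 was called lower there (log2 ratio −1.23), 1 of 2 calls among 9 members, with 6.16% of genes called. Without cluster 1 the ratio was −1.28. Within cluster 8 it was lower at both times, with 5.14 CPM at 15 days against 31.7 CPM without induction (6.17-fold, 3.85 to 10.1) and 8.28 CPM at 45 days against the same 31.7 CPM (3.83-fold, 2.31 to 6.56); genes called in cluster 8 were 1.45% and 1.5%. In cluster 3 it went the other way without a call, at 30.5 CPM at 15 days and 32.9 CPM at 45 days against 16.9 CPM without induction. Clusters 4 and 10 had no GREM1 call at either time, so cluster 8 was the only mesenchymal-like cluster compared that repeated the class-wide call. Cluster 10, highest in GREM1, gave 584 uninduced cells, 61 at 15 days and 58 at 45 days.

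In other clusters GREM1 was higher at 45 days. In cluster 17 it was at 8.48 CPM in uninduced cells, 4.14 CPM after 15 days and 31.7 CPM after 45 days, and it was the 1 of 8 members called at 45 days against no induction, with 1.5% of genes called. In cluster 7 it had 41 UMIs (26.1 CPM) at 45 days against 0 UMIs in the 66 uninduced cells, at least 2.84-fold higher with the floor set at 3 UMIs in the uninduced cells of that cluster. There 10.7% of genes were called. At 45 against 15 days GREM1 was also the 1 member called of 10 in cluster 7, where it had 0.597 CPM at 15 days, with 3.37% of genes called. In cluster 5, led by MYH6 and ACTC1, GREM1 was at 12.2 CPM at 15 days against 48.0 CPM without induction, the 1 of 8 members called (background 1.11%). Cluster 6, led by genes that respond to low oxygen, had GREM1 lower at both times, with 10.3 CPM at 45 days and 6.27 CPM at 15 days against 42.8 CPM in 88 uninduced cells; 7.24% and 8.16% of genes were called there.

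The inhibitory SMADs were low in whole libraries. SMAD6 was at 12.9 CPM in uninduced cells (650 UMIs), 21.1 CPM after 15 days (944 UMIs) and 14.4 CPM after 45 days (783 UMIs), and SMAD7 at 12.5 CPM (626 UMIs), 21.6 CPM (970 UMIs) and 17.3 CPM (944 UMIs). Neither was called between libraries. Both were highest in the 15-day library, where ID1, ID3 and ID4 were also highest.

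Of the 10 genes, SMAD6 was the one with endothelial-like cells near the top of its order; SMAD6 is known to restrain BMP signalling in endothelium. Liver secretory-like cells (45.7 CPM, 39.9 to 52.0) and endothelial-like cells (42.6 CPM, 38.0 to 47.5) led and overlapped each other, ahead of cluster 7 at 22.9 CPM. Endothelial-like cells were 899 of 21996 cells and gave 13.2% of all SMAD6 UMIs. Per library they were at 33.2 CPM in uninduced cells (108 UMIs), 44.5 CPM after 15 days (123 UMIs) and 60.9 CPM after 45 days (83 UMIs). The 45-day to uninduced log2 ratio was 0.79, not a call; with cells thinned to 2000 UMIs it was 1.04. After thinning, 6.62% of endothelial-like cells had a SMAD6 UMI, against 0.488% of haematopoietic-like cells and 1.63% of mural-like cells, at median depths of 7403, 5664 and 6593 UMIs before thinning. Of the 4 members at 20 CPM in endothelial-like cells, 0 were called in any comparison, where 2.04% of genes were called at 45 days against no induction, 1.15% at 15 days against no induction and 0.76% at 45 against 15 days. Endothelial-like cells held few transcripts of BMP4, BMP5, BMP7 and GREM1, each under 3 CPM over the libraries together. Of ligands outside the 10 genes, GDF7 was at 31.2 CPM and GDF11 at 26.7 CPM in them.

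SMAD7 varied less across cells. Liver secretory-like cells were at 35.5 CPM (30.4 to 41.1) and neuron-like cells at 23.7 CPM (20.5 to 27.3), and the other classes and clusters, apart from the 127 cells of cluster 19, lay between 12.6 and 21.8 CPM. In endothelial-like cells SMAD7 was at 12.6 CPM (10.2 to 15.4), an interval that overlaps that of mural-like cells, while the SMAD6 intervals of these cell types are separate.

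**Figure D3:**
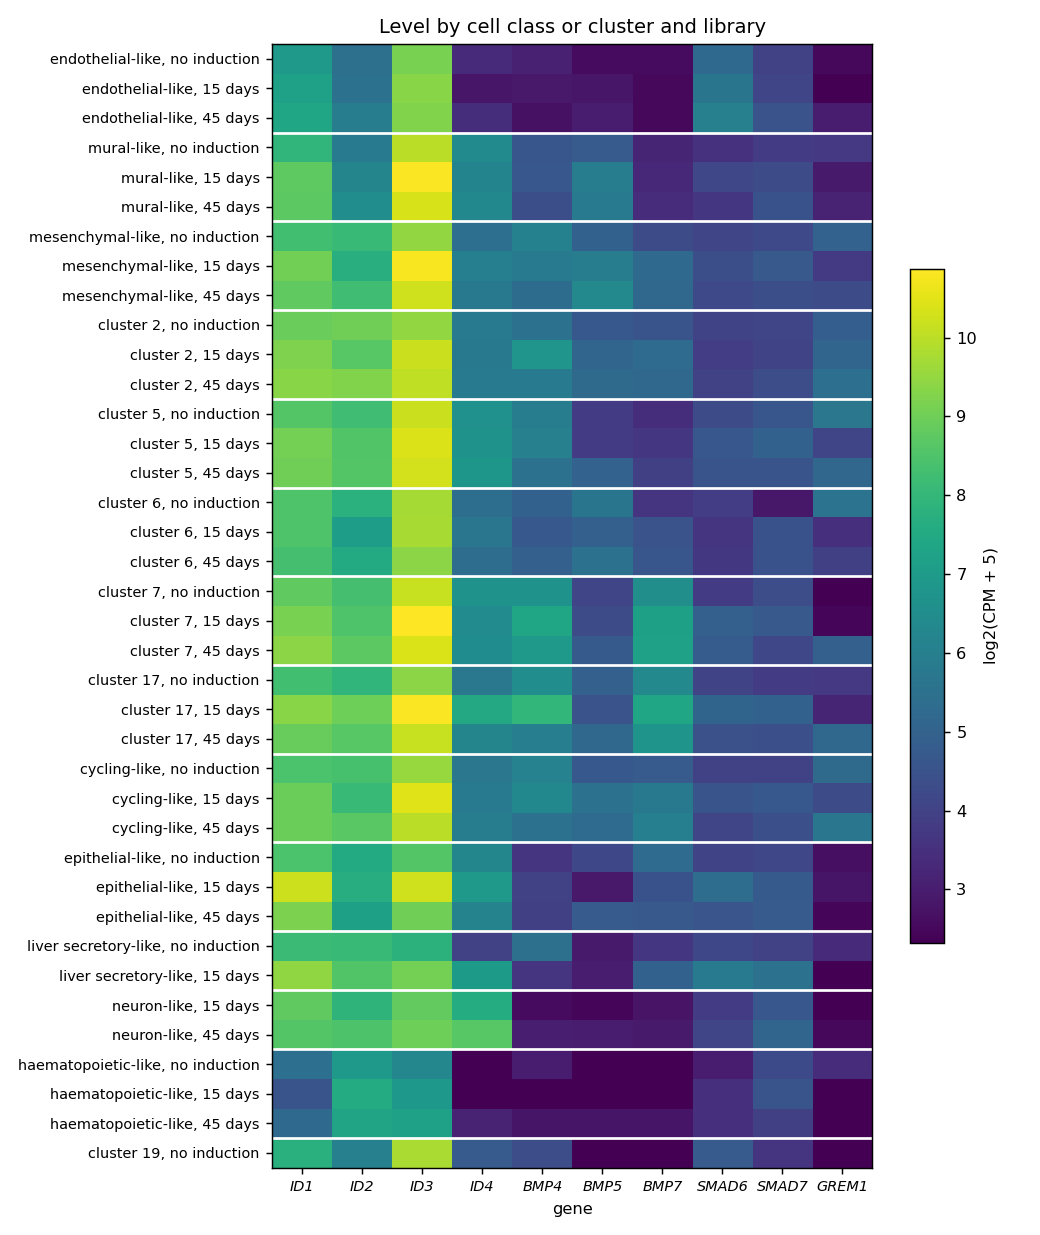
Level of the 10 genes, as log2(CPM + 5), in each cell class or numbered cluster (rows, each with its libraries in the order no induction, 15 days, 45 days) with colour for level. ID4 stands out in neuron-like cells and SMAD6 in endothelial-like and liver secretory-like cells. Haematopoietic-like cells are dark, which means low, for the ligands, GREM1 and ID4.

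The ID genes were detected in most cell types. ID3 gave 56.5% of all UMIs of the 4 genes, and the summed ID level, as UMIs not scaled by length, was 1345 CPM in uninduced cells, 2096 CPM after 15 days and 1835 CPM after 45 days. ID1 was at 318 CPM in uninduced cells (15971 UMIs), 511 CPM after 15 days (22920 UMIs) and 450 CPM after 45 days (24520 UMIs). ID3 was at 714 CPM in uninduced cells, 1272 CPM after 15 days and 1005 CPM after 45 days. ID4 was at 47.0 CPM in uninduced cells, 84.4 CPM after 15 days and 76.1 CPM after 45 days. The 3 genes kept 1 order over the libraries, highest at 15 days and lowest without induction. ID2 did not share it, with 266 CPM in uninduced cells, 228 CPM after 15 days and 303 CPM after 45 days. At 15 days against no induction ID4 was at 1.79-fold (1.70 to 1.89; log2 ratio with 5 CPM added 0.78) and ID3 at 1.78-fold (1.76 to 1.81; 0.83), intervals that overlap and ratios short of a call.

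Each ID gene had its own order of cell types. With classes pooled, ID1 led in liver secretory-like cells (613 CPM), cluster 7 (598 CPM) and epithelial-like cells (596 CPM), which overlapped, and was low in endothelial-like cells (135 CPM, 126 to 143) and haematopoietic-like cells (27.9 CPM). Epithelial-like cluster 0 alone was higher, at 836 CPM. ID2 was highest in cluster 2 (531 CPM, 517 to 545) and lowest in endothelial-like cells (43.2 CPM) and cluster 19 (49.8 CPM), whose intervals overlap, with mural-like cells at 71.7 CPM. ID3 was highest, with classes pooled, in cluster 7 (1563 CPM) and mural-like cells (1384 CPM), and lowest in haematopoietic-like cells (114 CPM, 97.1 to 132), while mesenchymal-like cluster 8 alone was at 1931 CPM. In mural-like cells ID3 and ID2 stood near opposite ends of their own orders. Endothelial-like cells had ID3 at 605 CPM and ID4 at 4.201 CPM (2.85 to 5.96), both below the mural-like cells, at 1384 and 73.2 CPM.

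Neuron-like cells were the class with the highest ID4 level, 269 CPM (258 to 280), ahead of cluster 5 (99.7 CPM) and liver secretory-like cells (98.5 CPM), which overlapped. These 593 of 21996 cells gave 21.7% of all ID4 UMIs. In them ID4 was at 398 CPM at 45 days against 193 CPM at 15 days (2.06-fold, 1.90 to 2.25; log2 ratio 1.03), the 1 member called of 5 in that comparison, with 2.78% of genes called; the uninduced library held 1 such cell. The neuron-like cells split at a finer resolution, a division added after the data were seen, into cells high in NEFL and PRPH (151 at 45 days, 240 at 15 days; medians of 14691 and 18615 UMIs) and cells high in NEUROD1 and INSM1 (150 and 51 cells; medians of 3580.5 and 2409 UMIs). These names hold only within a library. At 45 days NEUROD1 was at 579 CPM in the NEFL-high cells and 1403 CPM in the NEUROD1-high cells, and at 15 days at 5.54 and 182 CPM. NEUROD1 therefore also differed between libraries within each of these sets of cells. In the NEFL-high cells ID4 was at 461 CPM at 45 days against 194 CPM at 15 days (2.37-fold, 2.18 to 2.59). In the NEUROD1-high cells it was at 126 CPM at 45 days against 160 CPM at 15 days (0.79-fold, 0.507 to 1.26). NEUROD1-high cells had more ID2 than NEFL-high cells in both libraries, with 747 CPM at 45 days and 545 CPM at 15 days, beside 265 and 219 CPM. ID1 in the NEFL-high cells was at 400 CPM at 45 days and 437 CPM at 15 days. Of the members at 20 CPM there, only ID4 was past 2-fold. Smaller differences were seen for ID2 (1.21-fold, 1.09 to 1.33), ID3 (1.12-fold, 1.04 to 1.20) and SMAD7 (1.46-fold, 1.065 to 2).

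**Figure D4:**
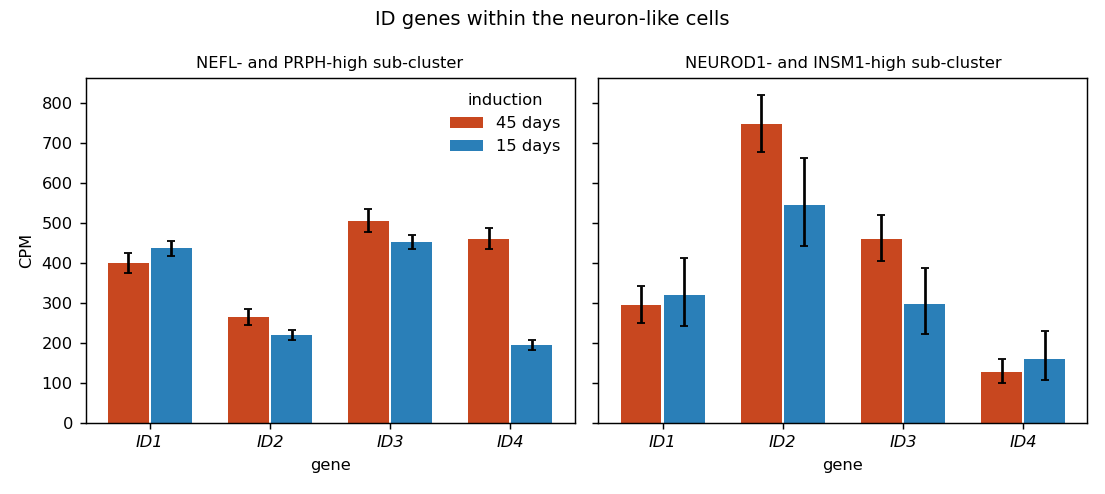
CPM of ID1 to ID4 in the NEFL-high and the NEUROD1-high neuron-like cells, 45 days and 15 days of induction side by side, with exact Poisson 95% intervals. ID4 in NEFL-high cells is at 461 CPM at 45 days and 194 CPM at 15 days, and no other ID gene there differs by 2-fold.

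Within mesenchymal-like cells ID3 was at 716 CPM in uninduced cells, 1786 CPM after 15 days and 1223 CPM after 45 days. The log2 ratio of ID3 at 15 days against no induction was 1.31, a call beside that of GREM1. Without cluster 1, whose ID3 level was 209 CPM, it was 0.93 and no call, and within single clusters it was 0.44 in cluster 3, 0.32 in cluster 4, 0.29 in cluster 8 and 0.19 in cluster 10. No single cluster repeated the class-wide call. ID1 in the same cells was at 304 CPM in uninduced cells, 522 CPM after 15 days and 437 CPM after 45 days. In mural-like cells ID3 was at 1001 CPM in uninduced cells, 1827 CPM after 15 days and 1291 CPM after 45 days, and ID1 at 245, 430 and 412 CPM, with no call.

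In cluster 17 both the ligands BMP4 and BMP7, all 4 ID genes and both inhibitory SMADs were higher at 15 days than without induction. At 15 days against no induction 8 of the 9 members at 20 CPM were higher, against 4.81% of genes in that cluster, and the median member log2 ratio was 1.08 beside 0.17 for all genes. ID1 was at 651 CPM at 15 days against 306 CPM without induction, ID2 at 503 against 241 CPM, ID3 at 1803 against 671 CPM and ID4 at 175 against 48.3 CPM. BMP4 was at 250.4 CPM at 15 days against 87.3 CPM without induction, and BMP7 at 162 against 77.2 CPM. SMAD6 was at 28.97 against 11.9 CPM and SMAD7 at 26.2 against 9.33 CPM. BMP5, at 17.9 against 25.4 CPM, was the member at this level without a call, and GREM1 stayed under 20 CPM. The libraries gave 176 cells at 15 days and 210 without induction. At 45 days against no induction only GREM1 passed, and at 45 against 15 days GREM1 was higher while ID4 (68.6 against 175 CPM) and BMP4 (58.6 against 250.4 CPM) were lower, 3 of 10 members against 3.04% of genes.

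In epithelial-like cells ID1 was at 342 CPM in uninduced cells, 1180 CPM after 15 days and 582 CPM after 45 days, and ID3 at 377, 1231 and 520 CPM. At 15 days against no induction ID1, ID3 and SMAD6 (36.2 against 11.8 CPM) were called higher, 3 of 7, with 10.4% of genes called. The class held 2 clusters in different shares: KRT5- and KRT15-led cluster 0 had 209 cells without induction and 220 at 15 days, and cluster 16 had 250 and 25. Within cluster 0 ID3 and SMAD6 were called, 2 of 7, with 8.68% of genes, and ID1 had a log2 ratio of 0.94. At 45 days against no induction 0 members were called in the class, with 7.81% of genes. Its clusters differed: cluster 0 had 0 of 8 called, with 7.09% of genes. Cluster 16, with 78 cells at 45 days and 250 without induction, had BMP4 higher and ID3 lower, 2 of 7, with 10.6% of genes called. In the class at 45 against 15 days BMP5 was higher and ID1 and ID3 lower, 3 of 8, with 2.14% of genes called.

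Liver secretory-like cells had 7 of 8 members called at 15 days against no induction, with ID1, ID3, ID4, BMP7, SMAD6 and SMAD7 higher and BMP4 lower. That comparison rests on 246 and 79 cells, 19% of all genes were called in it, and the summed liver markers stood at 39053 CPM at 15 days against 23687 CPM without induction, so the members' count is read against a background of wide differences. In haematopoietic-like cells, which stood lowest for ID1, ID3 and ID4, 0 members were called in each of the 3 comparisons, with 8.24%, 7.19% and 5.19% of genes called at 45 days against no induction, 15 days against no induction and 45 against 15 days. In cycling-like cells BMP7 was called at 45 days against no induction (59.9 against 22.7 CPM, background 2.25%). GREM1 was called there at 45 against 15 days (45.8 against 14.7 CPM, background 2.26%). Neither cycling-like cluster repeated that GREM1 call on its own. Of the cycling-like clusters, only cluster 12 repeated the BMP7 call. In cluster 11 BMP4 and GREM1 were called lower at 45 days against no induction, 2 of 7, with 3.43% of genes called. At 15 days against no induction cluster 11 had BMP7 higher and GREM1 lower, 2 of 9, with 1.74% of genes called. Its BMP7 was lower at 45 against 15 days, 1 of 8, with 1.04% of genes called. Clusters 11 and 12 gave 195 and 104 cells at 15 days, and 142 and 429 at 45 days. In cluster 2 BMP4 was called at 15 days against no induction (104 against 41.2 CPM; background 4.15%). In cluster 5 BMP5 was at 27.5 CPM at 45 days against 9.18 CPM without induction, the 1 of 7 called (background 1.75%). BMP5 and GREM1 (30.8 against 12.2 CPM) were the 2 of 9 called there at 45 against 15 days (background 1.01%). In cluster 7 SMAD6 was at 25.7 CPM at 15 days against 9.17 CPM without induction, the 1 of 8 called, with 15.5% of genes called.

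**Figure D5:**
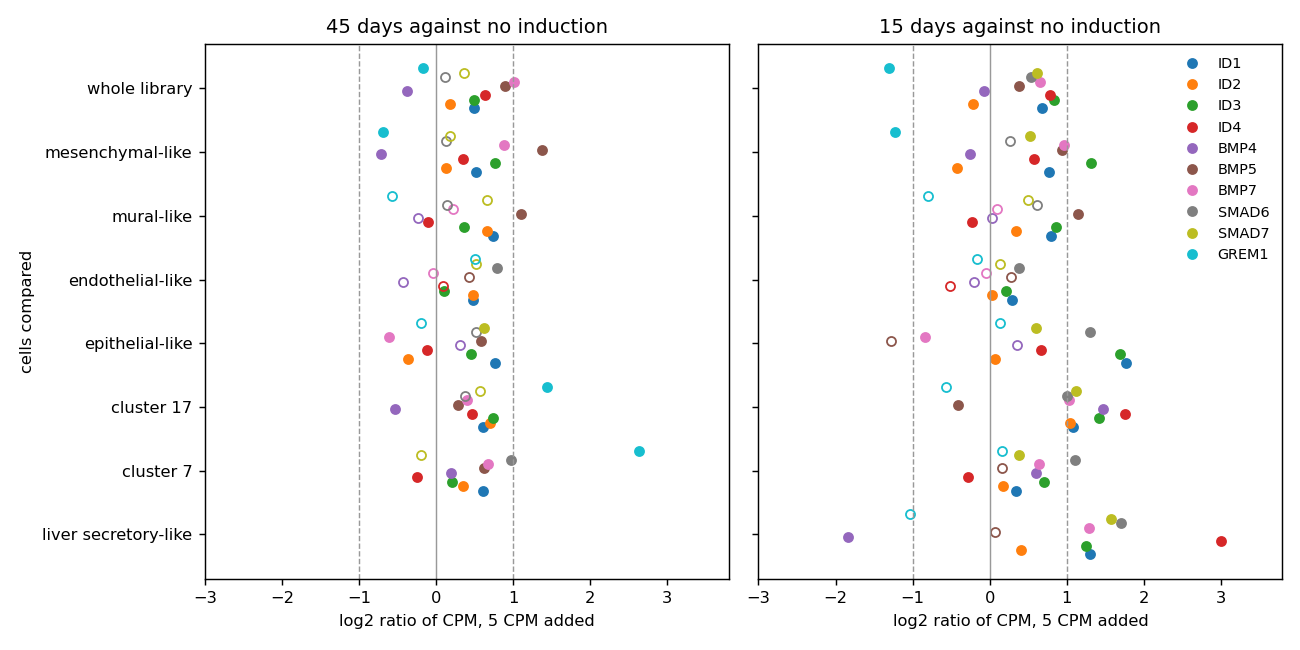
Log2 ratio of CPM with 5 CPM added for each member in each class or cluster, 1 panel per comparison, with points to the right of 0 higher in the group named first. In the 15-day comparison with no induction most cluster 17 members lie past 1, and GREM1 lies on the left in whole libraries and in mesenchymal-like cells.

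Ligand and ID levels were set side by side over the 21 clusters. Summed ID levels had a Pearson correlation across clusters of 0.47 with BMP4, 0.53 with BMP5, 0.54 with BMP7 and 0.31 with GREM1. Within libraries the order differed: at 45 days, over 18 clusters, GREM1 was at 0.64, BMP4 at 0.66, BMP5 at 0.61 and BMP7 at 0.41, while GREM1 was at 0.24 at 15 days and 0.31 without induction. These are descriptions over clusters that share libraries, depth and free RNA. Clusters departed from any common line in both directions. Neuron-like cells had a summed ID level of 1424 CPM with BMP4, BMP5 and BMP7 each under 3 CPM, though with GDF11 at 38.7 CPM. Cluster 1 had a summed ID level of 348 CPM with BMP4 at 55.7 CPM. Endothelial-like cells had 787 CPM, mural-like cells 1901 CPM and mesenchymal-like cells 1840 CPM. Within a class and library, cells were also split by whether they held a UMI of a ligand, of GREM1 or of an inhibitory SMAD after thinning, which gave 34 splits with enough cells. The share of cells with an ID1 UMI was higher in the split-positive cells with separate intervals in 2 of the 34, in mural-like cells at 15 days by BMP5 (78.0% of 50 cells, 64.0 to 88.5, against 50.4% of 419) and in mesenchymal-like cells at 45 days by GREM1 (69.8% of 63 cells, 57.0 to 80.8, against 48.4% of 2256). ID2 had separate intervals in 3 splits, 2 higher and 1 lower in the cells with the transcript, the lower one in cluster 2 at 45 days by BMP4. ID3 had 2, both higher, and ID4 had 1, lower, in mesenchymal-like cells at 45 days by SMAD7. In most splits cells with and without ligand transcripts could not be told apart at this depth. Genes outside the ID genes were not put through these splits. The counts of separate intervals therefore have no share over all genes to be read against, and no link within cells is drawn from them.

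The genes most like each member were sought among 11715 genes by the correlation of log2(CPM + 5) over 38 profiles, each 1 class or cluster in 1 library with at least 50 cells. BMP7 was most like MSX2 (r = 0.94), ZIC2 and CRISPLD1, and BMP4 most like PRAC1 (0.90), COL26A1 and HNRNPA1. BMP5 was most like OLFML1, PCDH18 and PDGFRB (0.86 each), the last a receptor used as a mural marker. GREM1 was most like AC090673.1 (0.79), PDE5A and FIBIN. SMAD6 was most like INO80C (0.79), TSPAN9 and GJA1, and SMAD7 most like AKT2 (0.73), SBF1 and MAPK10. ID1 was most like SOX4 (0.90), MAGEF1 and RCN2, ID2 most like LPAR2 (0.77), IRS2 and FLRT3, ID3 most like PDLIM7 (0.92), NCK2 and FLYWCH2, and ID4 most like MAP9 (0.89), ZNF436-AS1 and CCT2. Among the members, ID1 correlated with ID4 at 0.83 and with ID3 at 0.79, BMP4 with BMP7 at 0.80, and SMAD6 with BMP4 at 0.00. The profiles share libraries and lineages, so these values order genes and carry no p.

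Of 75 other pathway genes, 15 ligands, 19 antagonists and modulators, 12 receptors and co-receptors, 10 signal transducers, 16 further targets and 3 partners of ID proteins, all were in the files. BMP10 and GDF2 (BMP9), the endothelial ligands, had 0 UMIs. BMP2 was at 157 CPM in liver secretory-like cells and 72.9 CPM in cluster 17. At 45 days against no induction 3 of 40 at 20 CPM were higher, the ligand GDF10 (36.0 against 11.8 CPM) and the transcription factors DLX5 (20.2 against 6.19 CPM) and SOX9 (52.6 against 11.7 CPM), and 1 was lower, HAND1 (9.28 against 27.2 CPM). The 15-day library had 3 of 39 higher than no induction, HEY1 (105 against 42.7 CPM), DLX5 (27.0 against 6.19 CPM) and SOX9 (31.0 against 11.7 CPM). At 45 against 15 days GDF10 was higher (36.0 against 15.1 CPM), 1 of 37. All genes called came to 3.31%, 5.6% and 2.05% in these comparisons, and the list's median log2 ratio was 0.14, 0.27 and −0.03, beside 0.13, 0.19 and −0.06 for all genes.

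Receptor and target genes differed by cell type. Endothelial-like cells had the receptors ENG at 455 CPM and ACVRL1 (ALK1) at 151 CPM, the signal transducers SMAD5 at 109.5 CPM and SMAD1 at 91.3 CPM, and the targets UNC5B at 615 CPM and HEY1 at 243 CPM. UNC5B in them was at 883 CPM at 45 days against 419 CPM without induction and BMP3 at 20.6 against 4.61 CPM, the 2 list genes called higher of 28, where 1.06% of all genes were higher. In cluster 17 at 15 days against no induction 9 list genes were higher and 2 lower of 36, where 3.97% of all genes were higher and 0.835% lower. Among the higher were BAMBI, a pseudoreceptor that is itself a BMP target, and MSX2, DLX5, ATOH8, HEY1 and SMAD9. In cluster 7 in the same comparison 15 of 41 were higher and 0 lower, where 14.5% of all genes were higher and 0.965% lower. In neuron-like cells TCF4, an E protein that ID proteins bind, was at 88.2 CPM at 45 days against 20.0 CPM at 15 days (4.40-fold, 3.50 to 5.57). FST was also higher (42.8 against 12.6 CPM), and BMPER (6.21 against 32.8 CPM) and TBX3 (71.2 against 196 CPM) were lower. These were 4 of 27 called, where 2.78% of all genes were called. The values pool NEFL-high and NEUROD1-high cells, which numbered 151 and 150 at 45 days and 240 and 51 at 15 days. The part of that mixture in these differences was not tested.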

How the data were processed

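Single-cell libraries were made with 10x Genomics 3′ v3 chemistry from organoids dissociated with papain (20 U/ml, 30 minutes), and the deposited matrices hold raw UMI counts (a UMI tags 1 captured molecule) for each gene and barcode, made with Cell Ranger 3.0.0 on GRCh38 per the submitters' processing notes; per the file headers the matrices were written by version 3.0.1. The gene annotation is not given in the sources used here. From these counts, cells were kept from 1000 UMIs and 500 detected genes upward if mitochondrial UMIs did not exceed 20%, and doublets were removed at an expected 0.8% per 1000 barcodes, by each cell's closeness to simulated pairs (725, 253 and 831 barcodes in the uninduced, 15-day and 45-day libraries). The 3 libraries were clustered together with scanpy 1.11.5 (10000 UMIs per cell, 1980 variable genes, 30 principal components, 15 neighbours, Leiden resolution 1.0), with no batch correction and with the members and the pathway list left out of the variable genes. A cluster was named from at least 3 markers, and 1 in 3 of its list, met at 2-fold and in 10% of cells. Mesenchymal-like clusters needed at least 3 markers only, met against the clusters already named other than mural and cycling ones. At least 3 liver markers among the leading genes also gave the liver secretory name. A cluster was left unnamed where its top 10 genes held more markers of another list. Where that list was the cycling one and its rule was met, the cluster was named cycling-like.

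UMIs were summed per library and class and given as CPM with exact Poisson intervals; folds have exact conditional binomial intervals and shares exact Clopper-Pearson intervals, all at 95% and for counting error only. Comparisons needed at least 50 cells in both libraries. All 10 members, the pathway genes called in whole libraries or leading their role in a class, and the 3 genes most like each member were to be named. The members, lists and markers were chosen with earlier results of these data known. Gene positions came from GENCODE 29 (33456 of 33538 gene identifiers found) and promoters from RefSeq. Versions used were Python 3.11.15, scipy 1.17.1, numpy 2.4.6, scikit-learn 1.9.0 and matplotlib 3.10.9.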

Additional observations from a re-analysis of the deposited data

Results flagged for a closer look

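In 5 pairs of cell groups a member passed 2-fold in opposite directions under the same comparison, and none of these differences between cells was tested. The pairs came from BMP4, GREM1 and ID4 only and reuse values, so they are not 5 separate results. In the cell groups and comparisons concerned, 1.5% to 19% of all genes were called. How many of all genes passed in opposite directions was not counted. BMP4 at 15 days against no induction had a log2 ratio of 1.47 in cluster 17 and 1.24 in cluster 2 but −1.84 in liver secretory-like cells, where the uninduced library gave 79 cells. GREM1 at 45 days against no induction had log2 ratios of 1.45 in cluster 17 and 2.63 in cluster 7, the last resting on 0 UMIs in the uninduced cells and set by the added 5 CPM (at least 2.84-fold against the floor of 3 UMIs), but −1.65 in cluster 6, whose uninduced cells numbered 88. ID4 at 45 against 15 days had a log2 ratio of 1.03 in neuron-like cells and −1.29 in cluster 17.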

How the results depend on the processing

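Of 190 recomputed counts and shares, 156 stayed within 1.5 times their value and 34 moved. Of 1081 recomputed member ratios, 248 moved, and 1049 kept their sign. In whole libraries at 45 days against no induction the count of members called, 1, was 2 with 1 CPM added and 0 with 10 CPM added, with a floor of 50 CPM, with median-of-ratios scaling, thinned to 2000 UMIs, without endothelial-like cells, with equal class weights and without cluster 1. At 15 days against no induction the count of 1 was 0 with a floor of 50 CPM and with equal class weights. At 45 against 15 days the count of 0 was 1 (GREM1) with a floor of 5 CPM and without neuron-like, mural-like or epithelial-like cells. In endothelial-like cells thinning gave 2 (SMAD6 and SMAD7) at 45 days against no induction and 1 (SMAD7) at 45 against 15 days, in place of 0. In mural-like cells the count of 1 at 45 days against no induction was 0 with 10 CPM added, median-of-ratios scaling, doublets kept, thinning or the members kept in the clustering. At 15 days it was 0 with doublets kept, thinning or the members kept, and 2 (ID1 and BMP5) with classes taken from single cells. In mesenchymal-like cells the count of 1 at 45 days was 2 (BMP5 and BMP7) with 1 CPM added, doublets kept, resolution 2.0 or the members kept in the clustering. It stayed 1 with classes taken from single cells and with unnamed clusters put back, but the member called was then BMP7 and not BMP5. The count of 2 at 15 days was 4 with 1 CPM added and 1 with 10 CPM added, a floor of 50 CPM or without cluster 1. The class with the largest share of cells with a UMI was the same for 5 of the 10 members when cells were not thinned. The cause of these changes was not tested. Leaving out cluster 1, putting unnamed clusters back into classes and splitting the neuron-like cells were chosen after seeing the data. No paired analysis was possible because there is 1 library per group, and no replicate could be left out. Depth limits SMAD6, SMAD7 and GREM1 most, since many of their class values rest on few UMIs.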
